A study of Mus musculus with 10 samples.

Results

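Brown adipose tissue of mice on a high-fat diet was compared with brown adipose tissue of mice on regular chow, whether the high-fat mice were classed as obesity-prone or obesity-resistant. The genes described are those with a numeric gene identifier in the deposited table, 25017 of its 32889 genes, and the diet difference is measured by pooling all 6 high-fat libraries against the 4 chow libraries. Total RNA of brown fat was sequenced from wild-type C57BL/6J mice, 1 library per sample. The chow group (control replicates 1 to 4) received a regular chow diet. The high-fat group holds 3 libraries labelled obesity-prone and 3 labelled obesity-resistant (replicates 1 to 3 of each), all on a high-fat diet. The labels give no age, sex, diet composition, diet duration or body weight, and they do not say how a mouse was classed as prone or resistant. Nothing in the labels states that the libraries of a group come from separate animals, so a p-value here measures the spread between these samples only.

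Brown adipose tissue burns fatty acids and glucose to make heat through uncoupling protein 1 (UCP1) in its mitochondria, under the control of noradrenaline and thyroid hormone. Brown adipocytes also build fatty acids from glucose by de novo lipogenesis, a pathway that insulin and carbohydrate supply are known to raise and dietary fat is known to lower in fat and liver. Heat shock chaperones keep proteins folded in the cytosol, and a matching set of chaperones works in the endoplasmic reticulum.

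Total counts lay between 35583997 and 37327770 per library, and 21.0 to 26.2% of them belonged to genes without a name. As for the tissue label, all 12 genes of the adipocyte list were present in every library, and Ucp1 lay between 2887 and 10210.0 CPM (counts scaled to normalised library sizes, the usual counts-per-million unit). On the principal component that held 31.2% of the variance, the chow libraries numbered 1 to 3 scored -54.1 to -33.5. The fourth chow library scored 10.1. Obesity-resistant libraries scored -6.08 to 0.773, and obesity-prone replicates 2, 1 and 3 scored 19.7, 36.2 and 71.9. The high-fat classes thus did not overlap on this component, and control replicate 4 lay between them. Summed skeletal muscle markers ran from 115 to 3235 CPM in chow and from 120.5 to 2770.0 CPM in high-fat libraries, and in edgeR 0 of 21 tested markers passed the diet test (1 at an unadjusted p below 0.05, and 0 by DESeq2). The median log2 fold change of the list was -0.95, with 20 of the 21 below 0. With so wide a spread, 0 calls do not show equal muscle content between the diets. In tissue samples like these, fewer cells of a type and less RNA per cell cannot be told apart.

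With all 10 libraries, 868 of the 16577 named genes tested differed between the diets at an adjusted p below 0.05 (edgeR quasi-likelihood test, Benjamini-Hochberg over all genes tested), of which 430 were higher and 438 lower on the high-fat diet. Over all 19188 genes tested, named or not, 4.84% passed, 2.49% upward and 2.35% downward. These are the background shares against which the counts of each gene group are read. Among protein-coding genes 381 rose and 405 fell of 14038 tested, and among long noncoding RNAs (lncRNAs) 44 rose and 28 fell of 2087. The size of the log2 fold change of the 868 genes had a median of 0.72, a 10th percentile of 0.35 and a 90th percentile of 1.71, and 256 of them changed at least 2-fold. For 725 of the 868, no high-fat library overlapped a chow library, and 8.08% of all genes tested had groups that did not overlap. The balance of directions differed between methods. Limma on log2(FPKM + 0.5), where FPKM is the authors' length-normalised value, called 487 genes higher and 250 lower. Upward calls were 66.1% of its calls against 49.5% in the count test. The methods differ in scale, normalisation, gene filter and test, and which of these shifts the balance was not tested.

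**Figure D1:**
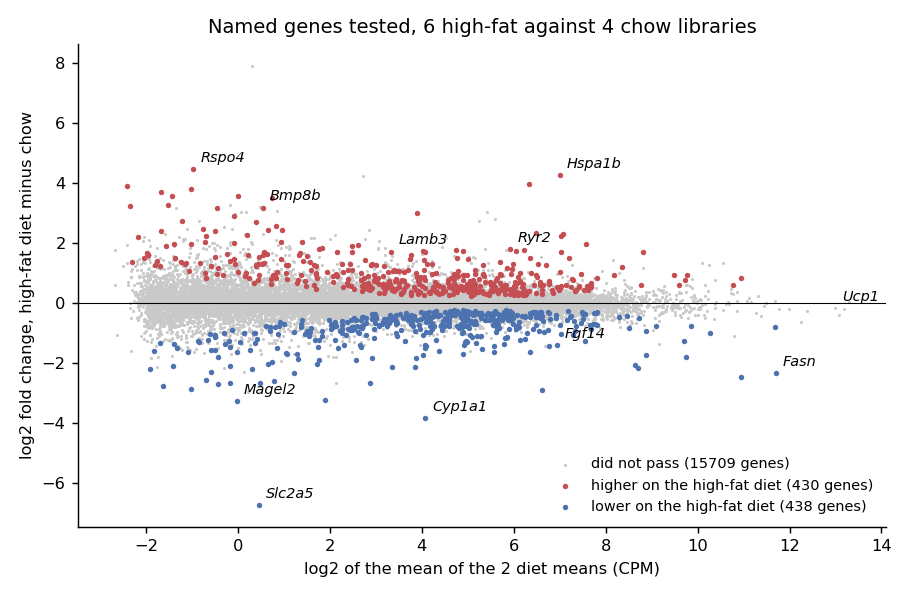
Log2 fold change (high-fat diet minus chow) of the 16577 named genes tested against the log2 of the average of the chow and high-fat mean CPM. Red points are the 430 genes that passed as higher, blue points the 438 that passed as lower and grey points the genes that did not pass; Ucp1, at the right, lies close to 0.

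The number of genes that passed rested strongly on the libraries included. Leaving out control replicate 3, 1 or 2 reduced the 868 named genes to 12, 53 and 101, while leaving out control replicate 4 raised them to 1831 and leaving out obesity-prone replicate 3 raised them to 1524. Without each of the remaining high-fat libraries, 244 (obesity-prone replicate 2), 425 (obesity-resistant replicate 1), 426 (obesity-resistant replicate 3), 467 (obesity-prone replicate 1) and 602 genes (obesity-resistant replicate 2) passed. All 868 genes kept their direction in all 10 of these fits. With control replicate 4 and obesity-prone replicate 3, the libraries that stood apart on the principal component, both left out, 852 of the 868 passed among 3155 in all. The 868 were selected on these same libraries, so neither result is independent support for the calls.

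**Figure D2:**
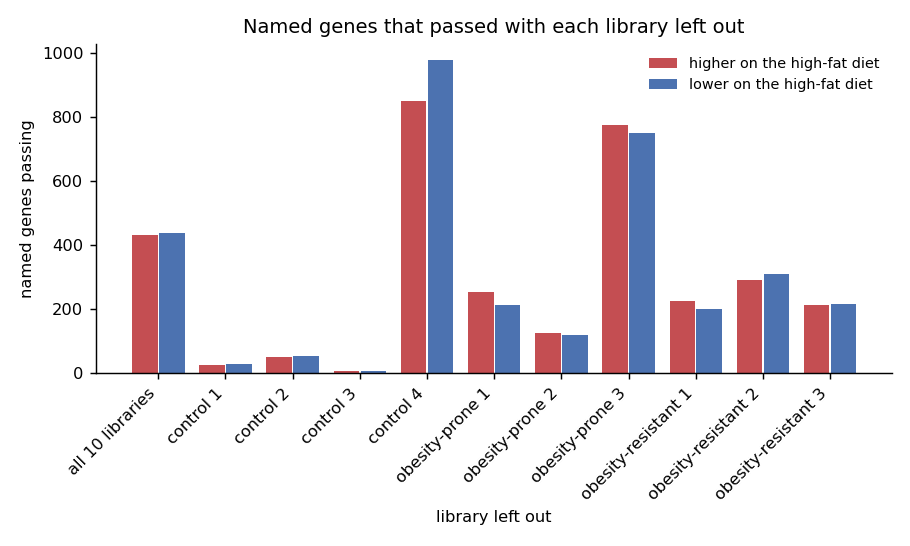
Named genes that passed with all 10 libraries and with each library left out in turn, as bars starting at 0 (red higher, blue lower on the high-fat diet). The counts run from 5 higher and 7 lower without control replicate 3 to 851 higher and 980 lower without control replicate 4.

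The pooled high-fat group held 2 classes, obesity-prone and obesity-resistant. For all 868 genes the obesity-prone and the obesity-resistant mean lay on the same side of the chow mean, a comparison in which both classes share the chow libraries. These genes were selected for a difference of the pooled classes from chow. Agreement of the classes was therefore favoured in advance and does not show an effect independent of class. In the direct test of obesity-prone against obesity-resistant libraries, edgeR called 0 of 19188 genes (0%), with 2997 at an unadjusted p below 0.05, while DESeq2 called 544 of 17486. Among the 868 diet genes, 78 had an unadjusted p below 0.05 in that edgeR test and DESeq2 called 15.

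In all, 12 genes passed in each of the 10 leave-one-out fits: Lamb3, Gpc1, Ryr2, Cdh9, Cacna1a, Fgf14, Col6a6, Zfp185, Magel2, Pde1a, Cyp1a1 and Tusc3. Lamb3, a laminin beta chain of basement membranes, measured 4.13, 4.78, 5.03 and 4.92 CPM in chow libraries 1 to 4 and ranged from 13.9 to 17.3 CPM with a median of 15.3 in the 6 high-fat libraries. No library of either diet lay near the other group (log2 fold change 1.71, SE 0.10, adjusted p = 5.87e-05). Gpc1, glypican 1, a heparan sulfate proteoglycan of the cell surface, measured 10.99, 10.8, 12.6 and 14.3 CPM in chow libraries 1 to 4 and ranged from 33.2 to 52.96 CPM with a median of 40.1 in the 6 high-fat libraries. The lowest high-fat library lay well above the highest chow library (log2 fold change 1.76, SE 0.14, adjusted p = 4.53e-04). Ryr2, a calcium release channel of the endoplasmic reticulum, measured 21.7, 28.05, 25.4 and 33.2 CPM in chow libraries 1 to 4 and ranged from 82.8 to 122 CPM with a median of 91.05 in the 6 high-fat libraries. Obesity-prone replicate 2 was the highest of the high-fat libraries, and the groups did not overlap (log2 fold change 1.80, SE 0.14, adjusted p = 4.53e-04). Cacna1a, the pore-forming subunit of a voltage-gated calcium channel, measured 11.4, 9.53, 11.95 and 9.21 CPM in chow libraries 1 to 4 and ranged from 18.7 to 26.02 CPM with a median of 23.5 in the 6 high-fat libraries. Cdh9, a cadherin of cell-cell contacts, rose from a mean of 1.52 to 5.28 CPM. The log2 fold changes were 1.11 for Cacna1a (SE 0.12, adjusted p = 0.00465) and 1.79 for Cdh9 (SE 0.19, adjusted p = 0.0032), again with no overlap. By class, Lamb3 averaged 16.6 ± 0.830 CPM in obesity-prone and 14.3 ± 0.561 CPM in obesity-resistant libraries, and Gpc1 41.3 ± 2.60 CPM in obesity-prone and 41.4 ± 10.3 CPM in obesity-resistant libraries (SD, n = 3 each).

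On the falling side, Fgf14, an intracellular fibroblast growth factor homologue that binds sodium channels, was the gene with the lowest p. Fgf14 measured 206, 175, 202 and 129 CPM in chow libraries 1 to 4 and ranged from 61.1 to 74.96 CPM with a median of 68.1 in the 6 high-fat libraries. Control replicate 4 was the lowest chow library, yet all high-fat libraries lay below it (log2 fold change -1.39, SE 0.13, adjusted p = 0.0013). Col6a6, a chain of collagen VI, measured 3.82, 3.94, 4.91 and 2.82 CPM in chow libraries 1 to 4 and ranged from 0.922 to 1.34 CPM with a median of 1.03 in the 6 high-fat libraries. The groups were separate, and Col6a6 fell (log2 fold change -1.86, SE 0.17, adjusted p = 0.00147). Zfp185, an actin-associated LIM domain protein, measured 20.8, 20.98, 35.04 and 16.8 CPM in chow libraries 1 to 4 and ranged from 3.25 to 6.29 CPM with a median of 5.59 in the 6 high-fat libraries. Pde1a, a calcium- and calmodulin-dependent phosphodiesterase, measured 49.1, 46.2, 50.8 and 32.4 CPM in chow libraries 1 to 4 and ranged from 18.8 to 22.99 CPM with a median of 21.6 in the 6 high-fat libraries. Control replicate 4 gave the lowest chow value of both genes, and neither gene's groups overlapped. Their log2 fold changes were -2.13 for Zfp185 (SE 0.22, adjusted p = 0.0032) and -1.06 for Pde1a (SE 0.12, adjusted p = 0.00465). Tusc3, a subunit of the complex that attaches sugar chains to new proteins, fell from a mean of 22.1 to 10.5 CPM (log2 fold change -1.07, SE 0.15, adjusted p = 0.0109).

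**Figure D3:**
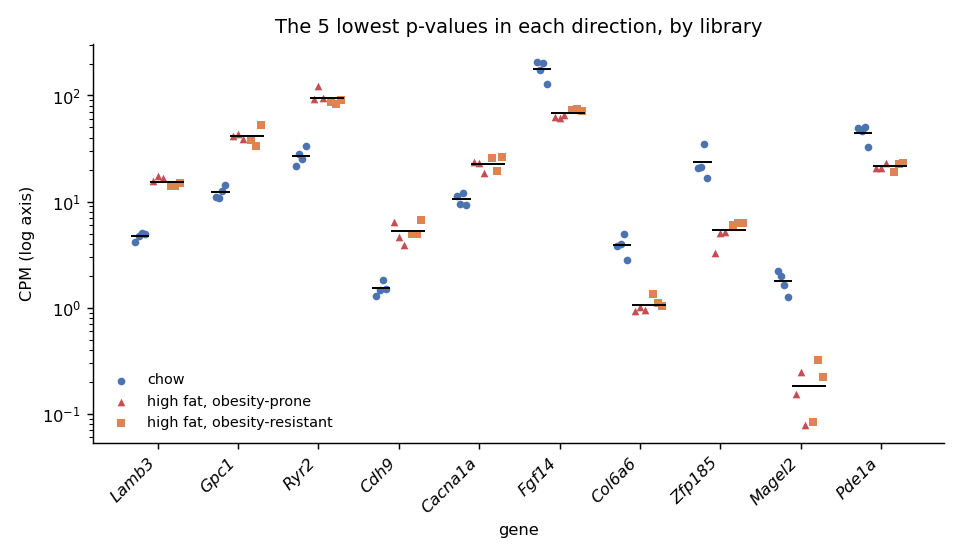
CPM per library on a log axis for the 5 rising and 5 falling named genes of lowest p (circles chow, triangles obesity-prone, squares obesity-resistant; black lines are group means of the 4 chow and the 6 high-fat libraries). In all 10 genes the high-fat points lie wholly above or wholly below the chow points, as for Lamb3 with 4.13 to 5.03 CPM in chow and 13.9 to 17.3 CPM on the high-fat diet.

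Among protein-coding genes that passed with a mean of at least 1 CPM in a diet group and separate groups, Slc2a5 fell most. Slc2a5 encodes the fructose transporter GLUT5. Slc2a5, Cyp1a1, Magel2 and Cyp2e1 were chosen on these terms, so their separate groups are no added support. Slc2a5 measured 5.30, 0.522, 3.95 and 1.09 CPM in chow libraries 1 to 4 and ranged from 0 to 0.138 CPM with a median of 0 in the 6 high-fat libraries. In 5 of the 6 high-fat libraries no count was assigned, and the group total was 5 counts against 388 in chow, a ratio of 116 with an exact 95% interval of 49.3 to 359 for counting error only (adjusted p = 0.0109). Without control replicate 3 the adjusted p of Slc2a5 was 0.0555. Cyp1a1, a xenobiotic-metabolising cytochrome P450 and the standard target of the aryl hydrocarbon receptor, measured 28.7, 38.1, 37.5 and 20.99 CPM in chow libraries 1 to 4 and ranged from 0.501 to 4.24 CPM with a median of 2.17 in the 6 high-fat libraries. Every high-fat library was far below every chow library (log2 fold change -3.84, SE 0.46, adjusted p = 0.0077), and the fall of Cyp1a1 passed in all 10 leave-one-out fits. Magel2, an imprinted gene of the Prader-Willi region, measured 2.23, 1.999, 1.65 and 1.25 CPM in chow libraries 1 to 4 and ranged from 0.0791 to 0.322 CPM with a median of 0.187 in the 6 high-fat libraries. Its groups were separate too (log2 fold change -3.25, SE 0.34, adjusted p = 0.0032), at low levels in both diets. Cyp2e1, a cytochrome P450 that oxidises ethanol and acetone, measured 376, 120.1, 137 and 56.1 CPM in chow libraries 1 to 4 and ranged from 3.92 to 43.4 CPM with a median of 23.1 in the 6 high-fat libraries. The chow libraries themselves spread widely, but none reached the high-fat range (log2 fold change -2.89, SE 0.60, adjusted p = 0.0285). Cyp2f2, a further P450, fell from 3.14 to 0.993 CPM (log2 fold change -1.66, SE 0.34, adjusted p = 0.0264). Thus 3 of the 16 tested genes of the aryl hydrocarbon receptor and P450 list fell and 0 rose. Over all genes tested 2.35% fell, and the list median was -0.16 against 0.018 over all genes tested. Of the 3 calls in the list, 1 remained without control replicate 1, 1 without control 2, 1 without control 3, 3 without control 4 and between 1 and 3 when a high-fat library was left out, with adjusted p-values of up to 0.101.

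Among the other large falls on the same terms was that of Pxmp2, a channel protein of the peroxisomal membrane, from 12.7 to 2.02 CPM. Sytl1, a synaptotagmin-like protein of vesicle transport, fell from 2.43 to 0.378 CPM. Lrtm1, a leucine-rich repeat membrane protein, fell from 2.95 to 0.489 CPM. Their log2 fold changes were -2.65 for Pxmp2 (SE 0.35, adjusted p = 0.00995), -2.67 for Sytl1 (SE 0.41, adjusted p = 0.0121) and -2.58 for Lrtm1 (SE 0.37, adjusted p = 0.0109). Cdhr5, a cadherin-related protein, fell from 1.102 to 0.225 CPM (log2 fold change -2.28, SE 0.42, adjusted p = 0.0209). Without control replicate 3 none of these 4 genes passed, with adjusted p-values of 0.0555 for Pxmp2, Sytl1 and Lrtm1 and 0.0611 for Cdhr5. Sytl1 and Cdhr5 were also lost without control replicate 1, at 0.0524 and 0.0822.

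Among the largest rises outside the chaperones, in genes with a mean of at least 1 CPM in a diet group and separate groups, was that of Hcn2, a cation channel opened by hyperpolarisation. Hcn2 measured 1.42, 3.65, 2.04 and 6.07 CPM in chow libraries 1 to 4 and ranged from 13.3 to 40.6 CPM with a median of 28.7 in the 6 high-fat libraries. Its groups did not overlap (log2 fold change 3.003, SE 0.47, adjusted p = 0.014). Bmp8b, a bone morphogenetic protein that brown adipocytes are known to make, measured 0.279, 0.406, 0.114 and 0.346 CPM in chow libraries 1 to 4 and ranged from 0.844 to 3.66 CPM with a median of 2.57 in the 6 high-fat libraries. Bmp8b rose, with separate groups (log2 fold change 3.18, SE 0.45, adjusted p = 0.0109), with 2.38 ± 1.43 CPM in obesity-prone and 2.85 ± 0.633 CPM in obesity-resistant libraries (SD, n = 3 each). Wwc1, a scaffold protein of Hippo signalling, rose from 0.219 to 1.66 CPM, Tmem252 from 0.346 to 2.27 CPM, Lmntd1 from 0.176 to 1.01 CPM, LOC101055676 from 0.492 to 2.68 CPM, and the olfactory receptor Olfr287 from 0.605 to 3.28 CPM. Serpina1a, an alpha-1-antitrypsin gene, rose from 0.519 to 3.05 CPM but has near-identical copies, so its counts are uncertain. Their log2 fold changes ran from 2.42 for Olfr287 to 2.89 for Wwc1, with adjusted p-values from 0.0113 to 0.0442. Without control replicate 1 or 3 none of these 8 genes passed, and the adjusted p then reached 0.0555 for Bmp8b, 0.0619 for Hcn2, 0.0590 for Wwc1 and 0.152 for Olfr287.

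In de novo lipogenesis 7 of 23 tested genes fell on the high-fat diet, against 2.35% over all genes tested. In the list 0 rose and 16 did not pass, and its median was -0.53. Acly, ATP citrate lyase, which makes cytosolic acetyl-CoA, measured 930.3, 382, 1142 and 258 CPM in chow libraries 1 to 4 and ranged from 131 to 167 CPM with a median of 156 in the 6 high-fat libraries. The high-fat libraries were tightly grouped, while chow replicates 1 and 3 lay far above replicates 2 and 4 (log2 fold change -2.16, SE 0.34, adjusted p = 0.0152). Fasn, fatty acid synthase, measured 8800.4, 2401, 9781 and 1301 CPM in chow libraries 1 to 4 and ranged from 522 to 1673 CPM with a median of 1094 in the 6 high-fat libraries. The same pair of chow libraries was high, and control replicate 4 fell inside the high-fat range (log2 fold change -2.34, SE 0.52, adjusted p = 0.0332). Acaca, acetyl-CoA carboxylase 1, which makes malonyl-CoA, measured 1912, 747, 2208 and 482 CPM in chow libraries 1 to 4 and ranged from 326 to 481 CPM with a median of 359 in the 6 high-fat libraries. Its groups were separate by a very narrow margin (log2 fold change -1.79, SE 0.36, adjusted p = 0.0264). Thrsp, a lipogenic regulator that responds to thyroid hormone and carbohydrate, measured 855, 509, 984 and 219.8 CPM in chow libraries 1 to 4 and ranged from 67.4 to 188 CPM with a median of 169 in the 6 high-fat libraries. Obesity-prone replicate 3 was the lowest library (log2 fold change -2.05, SE 0.38, adjusted p = 0.0214). The mitochondrial citrate carrier Slc25a1 and the pentose phosphate enzymes Tkt and Taldo1 completed the list of calls, with log2 fold changes of -1.42 for Slc25a1 (SE 0.29, adjusted p = 0.0281), -1.25 for Tkt (SE 0.25, adjusted p = 0.0264) and -0.71 for Taldo1 (SE 0.15, adjusted p = 0.0296). Per transcript length, Fasn stood at a mean of 540.2 FPKM in chow and 112 FPKM on the high-fat diet, Acly at 148 and 32.3 FPKM and Acaca at 164 and 48.1 FPKM.

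The transcription factors of the pathway did not pass: Srebf1 averaged 281 and 194 CPM in chow and high-fat libraries (adjusted p = 0.111), and Mlxipl, which encodes ChREBP, 293 and 309 CPM (adjusted p = 0.853). Acetyl-CoA carboxylase 2 (Acacb, 1595 and 1624 CPM) and the elongase Elovl6 (441 and 327 CPM) did not pass either. Acss2, Me1 and G6pdx lay just outside the threshold, at adjusted p-values of 0.0553, 0.0603 and 0.0634 and log2 fold changes of -0.71, -0.75 and -0.36. Of the 7 calls in the list, 0 remained without control replicate 1, 2 without control 2, 0 without control 3, 7 without control 4 and between 2 and 7 when a high-fat library was left out, with adjusted p-values of up to 0.122. The E-box CACGTG, searched on both strands, lay in 1 of the 7 promoter windows of the called genes (RefSeq, GRCm38.p6, 250 bases before to 50 after the start site) against 9.22% of the windows of named genes tested.

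Of 8 desaturation genes 1 rose and 0 fell, and of 23 cholesterol synthesis genes 2 rose and 2 fell. Over all genes tested, 2.49% rose and 2.35% fell. Scd1, the main stearoyl-CoA desaturase, did not pass (log2 fold change -0.41, SE 0.61, adjusted p = 0.72) and averaged 11824 ± 2780.5 CPM in obesity-prone and 3053 ± 1822 CPM in obesity-resistant libraries (SD, n = 3 each) against 9900.0 CPM in chow. The high-fat classes did not overlap for Scd1, yet the test between them did not pass (adjusted p = 0.228). Its low-level relative Scd3 rose (log2 fold change 3.50, SE 0.73, adjusted p = 0.0291), from 0.267 to 3.08 CPM, but the family is close in sequence and obesity-resistant replicate 1 overlapped the chow range. In the cholesterol list the risers were the squalene epoxidase gene Sqle (0.48) and the regulator Srebf2 (0.46), and the 2 that fell were mevalonate kinase (Mvk, -0.50) and squalene synthase (Fdft1, -1.71), all on the log2 scale with adjusted p-values from 0.0256 to 0.0416. None of the calls for Scd3, Sqle, Srebf2, Mvk and Fdft1 remained without control replicate 1, 2 or 3, with adjusted p-values of up to 0.149.

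**Figure D4:**
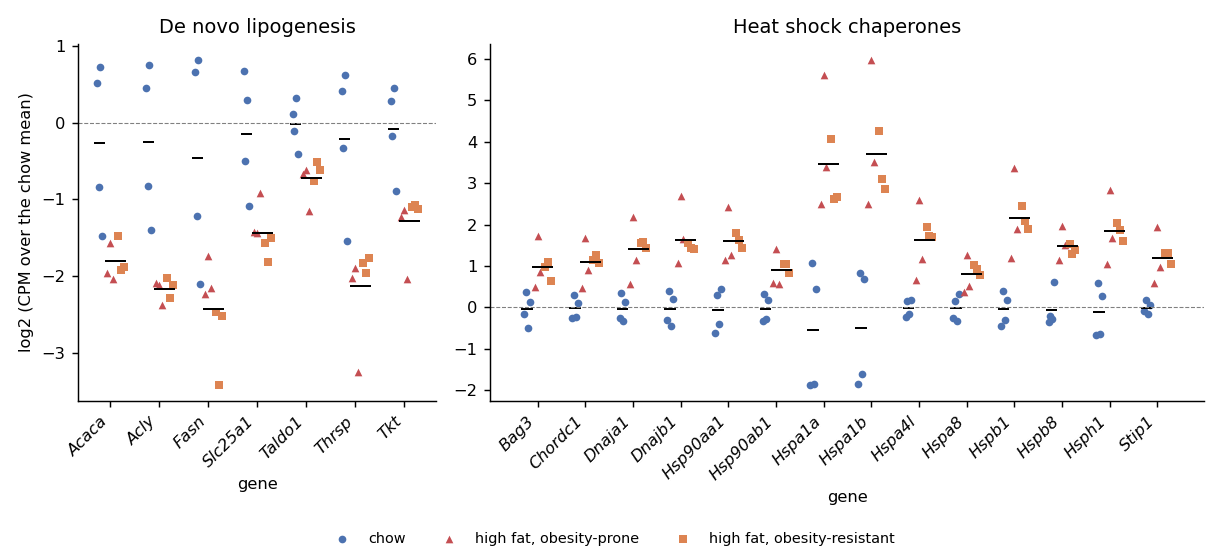
Log2 of CPM over the chow mean, by library, for the 7 lipogenesis genes and the 14 heat shock chaperone genes that passed (circles chow, triangles obesity-prone, squares obesity-resistant; black lines are means of the log2 values of the 4 chow and of the 6 high-fat libraries). Chow libraries split into a higher and a lower pair for Acly, Fasn and Acaca, and obesity-prone replicate 2 gives the highest triangle for the chaperones.

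In glucose handling, 2 of 27 tested genes rose and 1, Slc2a5, fell, against 4.84% passing over all genes tested. The list median was -0.27. Hk1, hexokinase 1, which phosphorylates glucose, measured 30.97, 41.9, 42.8 and 71.7 CPM in chow libraries 1 to 4 and ranged from 77.8 to 105 CPM with a median of 95.8 in the 6 high-fat libraries. Control replicate 4 was the highest chow library, below every high-fat library (log2 fold change 0.99, SE 0.20, adjusted p = 0.0257). Pfkp, the platelet-type phosphofructokinase, rose from 119 to 233 CPM (log2 fold change 0.97, SE 0.25, adjusted p = 0.0491), with control replicate 4 above the lowest high-fat library. The insulin-responsive transporter Slc2a4 did not pass (adjusted p = 0.483). Pdk1, the kinase that switches off pyruvate dehydrogenase, fell from 46.6 to 21.3 CPM (log2 fold change -1.13, SE 0.25, adjusted p = 0.0332), the only call among 26 genes of pyruvate oxidation and the TCA cycle. Without control replicate 1, 2 or 3, Hk1, Pfkp and Pdk1 all missed the threshold, with adjusted p-values of up to 0.160.

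The calls among genes of fatty acid supply, storage and oxidation stand beside 4.84% passing over all genes tested. In the uptake list 2 of 20 fell, the fatty acid transport protein Slc27a1 and the lipoprotein component Apoe, and 1 rose, the acyl-CoA synthetase Acsl4. Slc27a1 measured 312, 268, 263 and 214 CPM in chow libraries 1 to 4 and ranged from 103 to 173 CPM with a median of 151 in the 6 high-fat libraries. The groups were separate (log2 fold change -0.88, SE 0.15, adjusted p = 0.0183). Apoe fell from 618 to 323 CPM (log2 fold change -0.94, SE 0.17, adjusted p = 0.0203), and Acsl4 rose by 0.37 on the log2 scale (SE 0.0824, adjusted p = 0.0335). The lipid droplet protein Cideb fell from 7.17 to 2.74 CPM (log2 fold change -1.39, SE 0.31, adjusted p = 0.0331), and Plin2, a droplet coat protein, rose from 495 to 951 CPM (log2 fold change 0.94, SE 0.23, adjusted p = 0.044), 2 calls in 19 droplet and lipolysis genes. Plin2 had overlapping groups, and a transcribed pseudogene lies over part of its locus, so its counts are uncertain. Of 36 fatty acid oxidation genes only Acot12, a cytosolic acetyl-CoA hydrolase, passed, rising from 0.693 to 2.27 CPM (log2 fold change 1.71, SE 0.38, adjusted p = 0.0335), and the list median was -0.02. None of Slc27a1, Apoe, Acsl4, Cideb, Plin2 and Acot12 passed without control replicate 1, 2 or 3, with adjusted p-values of up to 0.159.

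In branched-chain amino acid breakdown 4 of 22 tested genes fell, against 2.35% over all genes tested. In the list 0 rose and 18 did not pass, with a median of -0.29. Bcat2, the mitochondrial transaminase that opens the pathway, measured 110.1, 110.1, 121 and 77.1 CPM in chow libraries 1 to 4 and ranged from 34.4 to 64.5 CPM with a median of 57.3 in the 6 high-fat libraries. Obesity-prone libraries were the lowest, at 41.7 ± 8.89 CPM in obesity-prone and 63.9 ± 0.754 CPM in obesity-resistant libraries (SD, n = 3 each), and no high-fat library reached the chow range (log2 fold change -0.99, SE 0.20, adjusted p = 0.0254). Mccc2, a subunit of methylcrotonyl-CoA carboxylase in leucine breakdown, fell from 83.4 to 54.5 CPM (log2 fold change -0.61, SE 0.12, adjusted p = 0.0225). Slc25a44, the mitochondrial carrier of branched-chain amino acids in brown fat, fell from 112 to 84.2 CPM (log2 fold change -0.42, SE 0.10, adjusted p = 0.0422). Bckdk, whose kinase inhibits the branched-chain dehydrogenase and so slows the pathway, fell as well (log2 fold change -0.50, SE 0.12, adjusted p = 0.0389). The dehydrogenase subunits Bckdha and Bckdhb did not pass, at log2 fold changes of -0.01 and 0.02. Of the 4 calls in the list, 0 remained without control replicate 1, 0 without control 2, 0 without control 3, 4 without control 4 and between 1 and 4 when a high-fat library was left out, with adjusted p-values of up to 0.141. Of 23 genes of amino acid transport and serine synthesis, the transporter Slc7a8 (log2 fold change -1.32, SE 0.25, adjusted p = 0.0237) and the alanine transaminase Gpt (log2 fold change -0.999, SE 0.22, adjusted p = 0.0319) fell and 0 rose. Neither passed without control replicate 1, 2 or 3, with adjusted p-values of up to 0.116.

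Cytosolic heat shock chaperones were the list with the largest share of rising genes: 14 of 23 tested rose and 0 fell, against 2.49% rising over all genes, with a list median of 1.03. Promoters of 4 of the rising genes are shown, chosen because they hold the heat shock element core GAANNTTC, which reads the same on both strands and is the letter pattern that heat shock factors are known to bind. The 150 bases just before the start site are printed in lower case with the core in capitals (RefSeq, GRCm38.p6).
Hspa1a, chr17:34972157-34972306, minus strand: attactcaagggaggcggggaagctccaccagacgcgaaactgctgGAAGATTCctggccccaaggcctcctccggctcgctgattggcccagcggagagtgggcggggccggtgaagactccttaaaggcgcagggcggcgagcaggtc
Hspa1b, chr17:34959239-34959388, minus strand: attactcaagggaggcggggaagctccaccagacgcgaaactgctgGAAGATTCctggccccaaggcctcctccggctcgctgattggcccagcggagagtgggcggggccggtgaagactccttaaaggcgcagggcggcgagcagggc
Hspb1, chr5:135887769-135887918, plus strand: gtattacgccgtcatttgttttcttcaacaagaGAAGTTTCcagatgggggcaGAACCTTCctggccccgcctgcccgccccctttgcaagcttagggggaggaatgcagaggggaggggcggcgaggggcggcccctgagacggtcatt
Dnaja1, chr4:40722318-40722467, plus strand: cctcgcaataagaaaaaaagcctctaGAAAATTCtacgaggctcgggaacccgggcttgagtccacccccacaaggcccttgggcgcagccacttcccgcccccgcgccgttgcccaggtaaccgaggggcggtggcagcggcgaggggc
Of the 14 rising genes 11 had a promoter window in the table, and 8 of the 11 held the core in a window, against 961 of 12725 named genes tested. By window, 9 of their 15 windows (60%) held it, against 6.34% of the windows of named genes tested and 7.86% of all windows. Among all named genes called higher, these chaperones included, 36 of 403 windows (8.93%) held it. Among those called lower it was 29 of 448 (6.47%). Whether the core has a part in the rises was not tested. The Hspa1a and Hspa1b stretches were identical at 149 of 150 bases. The transcripts were not compared here; these genes are known as near-identical copies, so how reads were divided between them is uncertain.

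Hspa1b, an inducible HSP70 chaperone, measured 3.52, 22.7, 4.15 and 20.5 CPM in chow libraries 1 to 4 and ranged from 71.3 to 797 CPM with a median of 127 in the 6 high-fat libraries. Hspa1a measured 2.65, 20.3, 2.67 and 13.1 CPM in chow libraries 1 to 4 and ranged from 54.6 to 474 CPM with a median of 81.3 in the 6 high-fat libraries. Obesity-prone replicate 2 was by far the highest library for both, and obesity-prone replicate 1 the lowest of the high-fat group, still above the highest chow library. The log2 fold changes were 4.26 for Hspa1b (SE 0.93, adjusted p = 0.0321) and 3.97 for Hspa1a (SE 0.90, adjusted p = 0.0356). Hspb1, the small chaperone HSP25, measured 33.1, 59.1, 36.4 and 51.2 CPM in chow libraries 1 to 4 and ranged from 103 to 467 CPM with a median of 179 in the 6 high-fat libraries. The groups did not overlap (log2 fold change 2.31, SE 0.40, adjusted p = 0.0186), and the call held without obesity-prone replicate 2, the highest library, at an adjusted p of 0.0182. Hspb8, a small chaperone that works with Bag3 in clearing damaged proteins, measured 33.3, 36.97, 34.95 and 64.7 CPM in chow libraries 1 to 4 and ranged from 94.4 to 167 CPM with a median of 116 in the 6 high-fat libraries. Control replicate 4 stood above the other chow libraries without reaching the high-fat range (log2 fold change 1.499, SE 0.22, adjusted p = 0.0111). Hsp90aa1, the inducible cytosolic HSP90, measured 139, 262, 161 and 291 CPM in chow libraries 1 to 4 and ranged from 469.7 to 1143 CPM with a median of 619 in the 6 high-fat libraries. Stip1, the co-chaperone that links HSP70 and HSP90, rose from 61.7 to 148 CPM. Both genes had separate groups, with log2 fold changes of 1.68 for Hsp90aa1 (SE 0.30, adjusted p = 0.0203) and 1.26 for Stip1 (SE 0.22, adjusted p = 0.0203).

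Outside the rule for named genes, and listed here because they complete the group, Hspa4l rose by 1.76, Hsph1 by 1.95, Dnajb1 by 1.73, Dnaja1 by 1.49, Chordc1 by 1.13, Bag3 by 1.03, and the constitutive Hsp90ab1 and Hspa8 by 0.94 and 0.85 on the log2 scale. In all 14 the lowest high-fat library exceeded the highest chow library. The heat shock factors Hsf1 (log2 fold change 0.21, SE 0.06, adjusted p = 0.0822) and Hsf2 (log2 fold change 0.21, SE 0.10, adjusted p = 0.225), the mitochondrial chaperones Hspd1 and Hspe1 (adjusted p = 0.254 and 0.273) and the muscle-enriched Hspb6, Hspb7 and Cryab did not pass. Of the 14 calls in the list, 0 remained without control replicate 1, 2 without control 2, 0 without control 3, 14 without control 4 and between 9 and 14 when a high-fat library was left out, with adjusted p-values of up to 0.155. With a skeletal muscle score as covariate, 10 of the list passed.

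In the endoplasmic reticulum list 4 of 21 rose and 0 fell, against 2.49% rising over all genes tested. The list median was 0.26. Manf, a secreted protein of the unfolded protein response, measured 21.9, 23.01, 24.7 and 30.1 CPM in chow libraries 1 to 4 and ranged from 33.6 to 40.2 CPM with a median of 35.7 in the 6 high-fat libraries. The groups were separate by a narrow margin (log2 fold change 0.54, SE 0.10, adjusted p = 0.0207). Sdf2l1, a chaperone partner, rose from 1.24 to 3.90 CPM, Hsp90b1, the reticulum's HSP90, from 167 to 227 CPM and Dnajc3 from 57.6 to 73.3 CPM. The log2 fold changes were 1.65 for Sdf2l1 (SE 0.30, adjusted p = 0.0203), 0.45 for Hsp90b1 (SE 0.09, adjusted p = 0.0285) and 0.35 for Dnajc3 (SE 0.07, adjusted p = 0.0296). Hspa5, the main chaperone BiP, did not pass (log2 fold change 0.30, adjusted p = 0.0949), nor did Xbp1 (adjusted p = 0.247). Of the 4 calls in the list, 0 remained without control replicate 1, 0 without control 2, 0 without control 3, 4 without control 4 and between 2 and 4 when a high-fat library was left out, with adjusted p-values of up to 0.12. In edgeR 0 of 16 integrated stress response genes passed (3 at an unadjusted p below 0.05, and 2 called by DESeq2), and 0 of 23 immediate early genes (7 and 4). Over the leave-one-out fits up to 7 and up to 3 passed, all as higher.

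Of the 41 tested genes of the extracellular matrix list 8 rose and 0 fell, against 2.49% rising over all genes tested. The list median was 0.55. Beside Lamb3 and Gpc1, the rises were in enzymes that modify new collagen, in its chaperone Serpinh1 and in Timp3. P4ha1, a prolyl hydroxylase of collagen, measured 23.2, 42.7, 19.9 and 33.6 CPM in chow libraries 1 to 4 and ranged from 76.1 to 259 CPM with a median of 134 in the 6 high-fat libraries. Its groups were far apart (log2 fold change 2.33, SE 0.34, adjusted p = 0.0111). P4ha2, a related prolyl hydroxylase, measured 6.72, 7.16, 5.54 and 7.80 CPM in chow libraries 1 to 4 and ranged from 15.3 to 31.8 CPM with a median of 19.03 in the 6 high-fat libraries. Obesity-prone replicate 2 was its highest library (log2 fold change 1.58, SE 0.22, adjusted p = 0.0109). Plod1, a lysyl hydroxylase of collagen, measured 67.3, 78.8, 69.8 and 77 CPM in chow libraries 1 to 4 and ranged from 105 to 137 CPM with a median of 117 in the 6 high-fat libraries. This was a small rise with separate groups (log2 fold change 0.69, SE 0.09, adjusted p = 0.0079). Serpinh1, the collagen chaperone HSP47, rose from 198 to 457 CPM, the lysyl hydroxylase Plod2 from 4.35 to 10.5 CPM and the protease inhibitor Timp3 from 159 to 249 CPM. No collagen chain of the list passed: Col1a1 averaged 166 and 252 CPM in chow and high-fat libraries (adjusted p = 0.471), Col3a1 290.1 and 396 CPM (adjusted p = 0.537) and Col4a1 691 and 1041 CPM (adjusted p = 0.15). Col1a1 was at 376 ± 203 CPM in obesity-prone and 129 ± 28.8 CPM in obesity-resistant libraries (SD, n = 3 each). Of the 8 calls in the list, 4 remained without control replicate 1, 5 without control 2, 2 without control 3, 8 without control 4 and between 6 and 8 when a high-fat library was left out, with adjusted p-values of up to 0.142. Without obesity-prone replicate 3, 4 genes of this list passed as lower. Outside the list, the collagen chain genes Col6a6, Col23a1, Col4a3 and Col4a4 fell, with log2 fold changes of -1.86, -1.24, -0.97 and -0.86 and adjusted p-values of 0.00147, 0.0214, 0.0398 and 0.0298. Their groups were separate, and Col6a6 alone of these 4 passed in all 10 leave-one-out fits.

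Of 26 tested genes of the thermogenic programme Bmp8b rose and Irf4 fell, against 4.84% passing over all genes tested. The list median was -0.08. Ucp1, the uncoupling protein of brown fat, measured 6229, 8774, 9348 and 10205 CPM in chow libraries 1 to 4 and ranged from 2887 to 9751 CPM with a median of 8612 in the 6 high-fat libraries. The groups overlapped and the difference did not pass (log2 fold change -0.18, SE 0.30, adjusted p = 0.756). Dio2, the deiodinase that activates thyroid hormone, averaged 409 and 407 CPM in chow and high-fat libraries (adjusted p = 0.996), Ppargc1a, the coactivator PGC-1α, 228 and 229.9 CPM (adjusted p = 0.986), the droplet protein Cidea 818 and 732 CPM (adjusted p = 0.711) and the elongase Elovl3 37.6 and 59.4 CPM (adjusted p = 0.321). Prdm16 averaged 423 and 400.4 CPM and Cox7a1 149 and 148 CPM, with adjusted p-values of 0.877 and 0.986. Irf4, a transcription factor that partners PGC-1α, measured 31.4, 23.8, 35.2 and 8.27 CPM in chow libraries 1 to 4 and ranged from 5.91 to 14.9 CPM with a median of 8.03 in the 6 high-fat libraries. Control replicate 4 lay inside the high-fat range (log2 fold change -1.498, SE 0.36, adjusted p = 0.0429), and the fall was lost in 8 of the 10 leave-one-out fits, with an adjusted p of up to 0.149. In edgeR 0 of 46 respiratory chain genes passed (4 at an unadjusted p below 0.05, and 0 by DESeq2), with a list median of -0.26, and when control replicate 4 and obesity-prone replicate 3 were both left out 21 passed as lower.

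Among adrenergic genes, 1 of 24 rose and 2 fell, against 4.84% passing over all genes tested. Adrb3, the β3-adrenergic receptor of adipocytes, measured 229, 207, 178 and 188 CPM in chow libraries 1 to 4 and ranged from 277 to 484 CPM with a median of 389.9 in the 6 high-fat libraries. All high-fat libraries lay above the chow libraries (log2 fold change 0.94, SE 0.15, adjusted p = 0.014), and the call was lost only without control replicate 3 (adjusted p = 0.0636). Rgs2, a brake on G protein signalling, measured 166, 127, 134 and 64.1 CPM in chow libraries 1 to 4 and ranged from 23.4 to 62.8 CPM with a median of 40.3 in the 6 high-fat libraries. The groups were separate (log2 fold change -1.61, SE 0.29, adjusted p = 0.0209), and Rgs2 did not pass without control replicate 1, 2 or 3 (adjusted p of up to 0.0852). Ryr2 was the only call among 18 genes of creatine and calcium cycling; Ckb averaged 61.7 and 62.5 CPM and Atp2a2 499.7 and 483 CPM in chow and high-fat libraries.

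Growth factor genes of the Wnt, FGF and BMP list rose in 3 and fell in 2 of 36 cases. The share passing over all genes tested was 4.84%. Fgf1, a fibroblast growth factor of adipose tissue, measured 20.4, 22.3, 19.8 and 32.9 CPM in chow libraries 1 to 4 and ranged from 46.6 to 66.7 CPM with a median of 56.2 in the 6 high-fat libraries. The groups did not overlap (log2 fold change 1.25, SE 0.15, adjusted p = 0.00778), and without control replicate 3 the adjusted p was 0.0555. Rspo4, a secreted amplifier of Wnt signals, measured 0.112, 0, 0.0568 and 0 CPM in chow libraries 1 to 4 and ranged from 0.269 to 1.95 CPM with a median of 0.877 in the 6 high-fat libraries. With 6 chow counts in all against 222, the ratio was 24.8 with an exact 95% interval of 11.2 to 68.2 for counting error only (adjusted p = 0.0262), and the 3 obesity-prone libraries were the highest. The third rise was that of Bmp8b. Beside Fgf14, Fgf16 fell from 0.611 to 0.140 CPM (log2 fold change -2.10, SE 0.46, adjusted p = 0.032). Without control replicate 1, 2 or 3 neither Rspo4 nor Fgf16 passed, with adjusted p-values of up to 0.126. Of the imprinted growth genes, Magel2 and Ndn fell and 0 of 17 rose; Ndn, from the same Prader-Willi region, fell from 24.4 to 14.3 CPM (log2 fold change -0.77, SE 0.11, adjusted p = 0.0109), with an adjusted p of 0.0555 without control replicate 3.

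Hormone-related lists gave a handful of calls, which stand beside 4.84% passing over all genes tested. In insulin signalling Irs1, the receptor substrate, fell from 138 to 75.2 CPM (log2 fold change -0.88, SE 0.21, adjusted p = 0.0422) and the binding protein Igfbp5 from 173 to 116 CPM (log2 fold change -0.58, SE 0.12, adjusted p = 0.0306), 2 of 21 tested. In the thyroid list 2 of 10 fell, Thrsp among them. Cfd, the adipokine adipsin, measured 1238, 616, 621 and 418 CPM in chow libraries 1 to 4 and ranged from 119 to 310.1 CPM with a median of 219.7 in the 6 high-fat libraries. All high-fat libraries lay below the chow range (log2 fold change -1.74, SE 0.35, adjusted p = 0.0263), and obesity-prone libraries were lower, with 139.7 ± 20.98 CPM in obesity-prone and 294 ± 15.7 CPM in obesity-resistant libraries (SD, n = 3 each). Adiponectin (Adipoq) averaged 570.3 and 341 CPM in chow and high-fat libraries and missed the threshold (log2 fold change -0.74, SE 0.20, adjusted p = 0.0549). Leptin (Lep) did not pass (log2 fold change 2.79, SE 1.31, adjusted p = 0.225), with obesity-prone replicate 3 at 396 CPM and the other libraries between 2.12 and 60.9 CPM. Tnfrsf9, a costimulatory receptor in the adipokine and white-selective list, rose from 0.0984 to 0.530 CPM (log2 fold change 2.40, SE 0.44, adjusted p = 0.0212). None of Irs1, Igfbp5, Cfd and Tnfrsf9 passed without control replicate 1, 2 or 3, with adjusted p-values of up to 0.140.

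Of 25 glutathione and antioxidant genes 3 fell and 1 rose. These calls and those of the osmolyte and lysosome lists stand beside 4.84% passing over all genes tested. Gpx3, the secreted glutathione peroxidase, measured 2064, 1782, 1464 and 1286 CPM in chow libraries 1 to 4 and ranged from 490.4 to 1042 CPM with a median of 842 in the 6 high-fat libraries. No high-fat library reached the chow range (log2 fold change -0.99, SE 0.21, adjusted p = 0.0299). The glutathione transferases Gstm1 and Gstm2, whose family shares sequence so that counts between members are uncertain, fell by 0.60 and 0.77 on the log2 scale (adjusted p = 0.024 and 0.0338), and the peroxiredoxin Prdx6 rose (log2 fold change 0.53, SE 0.11, adjusted p = 0.0253). Slc5a3, a sodium-coupled importer of the osmolyte myo-inositol, measured 50.8, 69.2, 51.2 and 75.8 CPM in chow libraries 1 to 4 and ranged from 146 to 334 CPM with a median of 177 in the 6 high-fat libraries. Obesity-prone replicate 2 was again the highest library (log2 fold change 1.70, SE 0.24, adjusted p = 0.0109). Akr1b3, aldose reductase, which makes the osmolyte sorbitol, rose too (log2 fold change 0.61, SE 0.11, adjusted p = 0.0209), 2 of 14 in the osmolyte list. In the lysosome list the acid lipase Lipa (0.42) and the calcium channel Mcoln1 (0.29) rose on the log2 scale, 2 of 25, with adjusted p-values of 0.0405 and 0.0455. Without control replicate 3 none of these 8 genes passed, with adjusted p-values from 0.0555 for Slc5a3 to 0.166 for Mcoln1; Slc5a3 was lost also without control 1, and the other 7 also without control 1 and 2.

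Most immune genes did not pass. Of 30 interferon genes 4 rose and 1 fell, with a median of 0.59, against 2.49% rising and 2.35% falling over all genes tested. Oas2, an antiviral oligoadenylate synthetase, measured 4.83, 3.80, 3.66 and 6.41 CPM in chow libraries 1 to 4 and ranged from 7.76 to 18.8 CPM with a median of 9.99 in the 6 high-fat libraries. The rise was separate from chow (log2 fold change 1.27, SE 0.27, adjusted p = 0.0285). Mx2 (log2 fold change 1.02, SE 0.23, adjusted p = 0.0365), Ifi44 (log2 fold change 1.59, SE 0.37, adjusted p = 0.038) and Ifit2 (log2 fold change 1.03, SE 0.24, adjusted p = 0.0383) rose. Of the 5 calls in the list, 0 remained without control replicate 1, 0 without control 2, 0 without control 3, 5 without control 4 and between 0 and 5 when a high-fat library was left out, with adjusted p-values of up to 0.141. Of 29 inflammatory genes Socs3, a feedback inhibitor of cytokine signalling, and the adhesion receptor Icam1 rose, with log2 fold changes of 1.28 for Socs3 (SE 0.30, adjusted p = 0.0369) and 1.09 for Icam1 (SE 0.26, adjusted p = 0.0422) and overlapping groups; neither passed without control replicate 1, 2 or 3 (adjusted p of up to 0.145). In edgeR 0 of 26 macrophage markers passed (1 at an unadjusted p below 0.05, and 0 by DESeq2), with a list median of 0.72, and none passed in any leave-one-out fit. Their summed level ran from 195 to 377 CPM in chow and from 213 to 959 CPM in high-fat libraries, where obesity-prone replicates 3 and 1 were highest at 959 and 618 CPM; their part in the interferon and inflammatory results was not tested.

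The calls among markers of other cell types also stand beside 4.84% over all genes tested. Erythrocyte markers ran from 840 to 6169 CPM in chow and from 723 to 22410.0 CPM in high-fat libraries, and in edgeR 0 of 9 passed (0 at an unadjusted p below 0.05, and 0 by DESeq2). Their list median was 1.25, with all 9 log2 fold changes above 0, so the 0 calls do not show equal blood content. Of 18 endothelial markers the VEGF receptor Flt1 rose (log2 fold change 0.58, SE 0.13, adjusted p = 0.0351), and the summed level ran from 1452 to 2545 CPM in chow and from 1950.0 to 2677 CPM in high-fat libraries. The neutrophil marker S100a9 rose from 0.236 to 0.986 CPM (log2 fold change 2.05, SE 0.51, adjusted p = 0.0465), and the neuronal tubulin Tubb3 from 2.75 to 3.77 CPM (log2 fold change 0.46, SE 0.11, adjusted p = 0.037). The 12 adipocyte markers summed to 25150.0 to 28740.0 CPM in chow and to 14180.0 to 23740.0 CPM in high-fat libraries, without overlap, and 2 of them, carbonic anhydrase 3 (Car3, log2 fold change -2.44, SE 0.48, adjusted p = 0.0242) and the transcription factor Cebpa (log2 fold change -0.77, SE 0.19, adjusted p = 0.0431), fell. None of Flt1, S100a9, Tubb3, Car3 and Cebpa passed without control replicate 1, 2 or 3, with adjusted p-values of up to 0.155. The sum of adipocyte markers includes Car3 and Cebpa themselves, and its part in the falls of adipocyte genes described above was not tested.

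Of the mesothelial and epithelial list, which had 4 tested genes, Cldn1, Lrrn4 and Prss8 fell, against 2.35% falling over all genes tested. Cldn1, a tight junction claudin, measured 12.03, 23.2, 15.8 and 15.4 CPM in chow libraries 1 to 4 and ranged from 0.685 to 7.59 CPM with a median of 3.22 in the 6 high-fat libraries. Lrrn4 fell from 5.32 to 1.29 CPM and Prss8, an epithelial membrane protease, from 1.29 to 0.198 CPM. The log2 fold changes were -2.12 for Cldn1 (SE 0.51, adjusted p = 0.0419), -2.04 for Lrrn4 (SE 0.45, adjusted p = 0.0321) and -2.68 for Prss8 (SE 0.47, adjusted p = 0.0203), and high-fat and chow libraries did not overlap. The summed level of the list ran from 18.9 to 30.8 CPM in chow and from 2.82 to 10.8 CPM in high-fat libraries. The defining mesothelial markers Msln, Upk3b and Wt1 were at or near 0 in all libraries: at most 0.0290 CPM for Msln, 0.211 CPM for Upk3b and 0.0551 CPM for Wt1. None of the 3 falls passed without control replicate 1, 2 or 3, with adjusted p-values of up to 0.120. In edgeR 0 of 6 T and NK cell, 5 B and plasma cell, 12 smooth muscle, 4 lymph node, 9 MHC class II and 24 cell cycle genes passed, with 0 at an unadjusted p below 0.05 and 0 by DESeq2 in each list. Of 15 progenitor and fibroblast genes edgeR called 0 (3 at an unadjusted p below 0.05, and 2 by DESeq2), and of 19 circadian clock genes 0 (4 and 1).

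**Figure D5:**
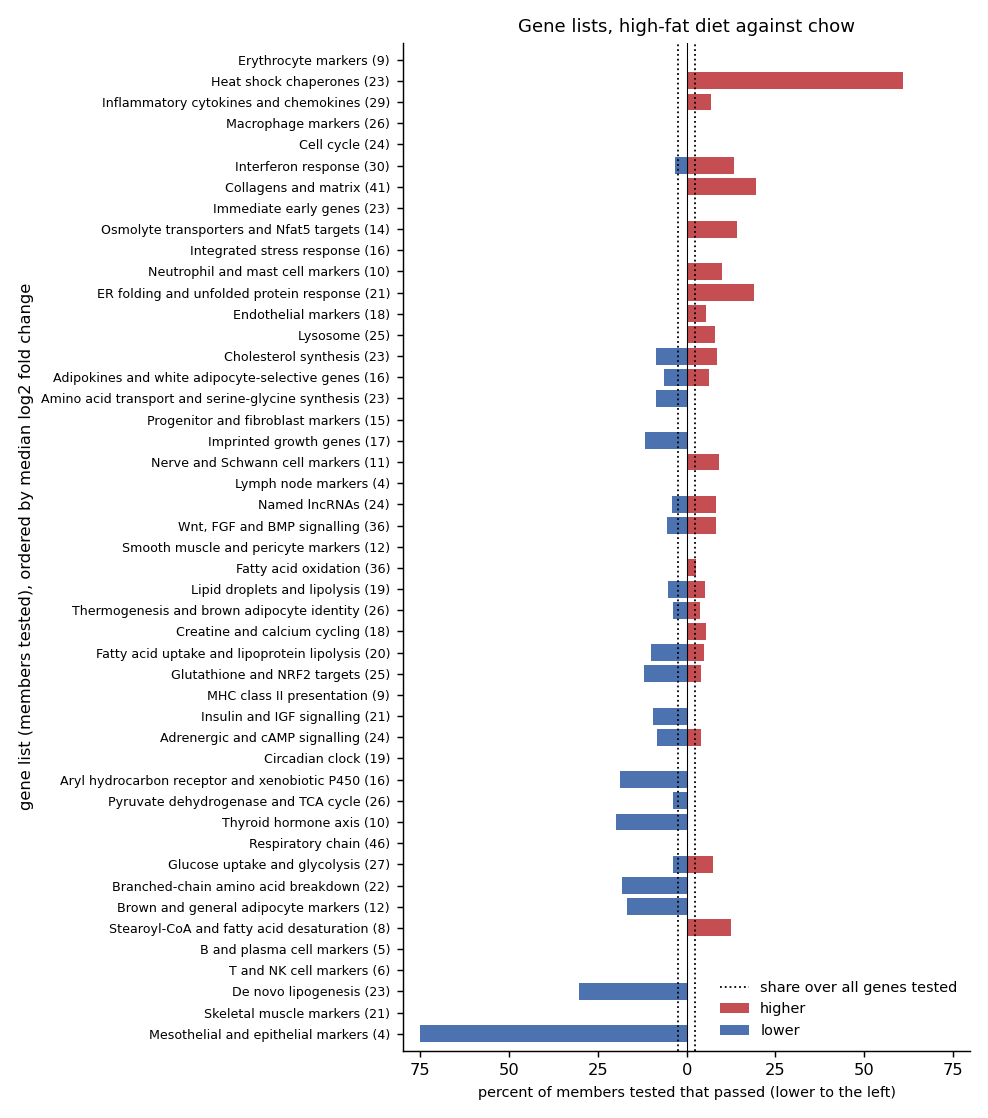
Percent of tested members that passed as higher (red, to the right) or lower (blue, to the left) in each of the 47 gene lists, ordered by median log2 fold change, with dotted lines at the shares over all genes tested (2.49% higher, 2.35% lower). The number tested stands in parentheses; heat shock chaperones reach furthest to the right with 14 of 23 and, among lists of more than 4 genes, de novo lipogenesis furthest to the left with 7 of 23.

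Of 2087 lncRNAs tested, 72 passed, 44 upward and 28 downward. Those described first had the largest changes among lncRNAs with a mean of at least 1 CPM in a diet group and separate groups. Gm41553 measured 29.2, 40.8, 22.03 and 91.4 CPM in chow libraries 1 to 4 and ranged from 125 to 377 CPM with a median of 208 in the 6 high-fat libraries. Its groups were separate (log2 fold change 2.24, SE 0.45, adjusted p = 0.0257). Gm34528 rose from 0.142 to 1.33 CPM, LOC105244648 from 0.154 to 1.86 CPM and Gm34471 from 0.394 to 1.91 CPM, with log2 fold changes of 3.17, 3.57 and 2.25. On the same terms the largest falls were in Gm35196 (log2 fold change -2.56, SE 0.51, adjusted p = 0.0258), Gm39429 (log2 fold change -1.97, SE 0.47, adjusted p = 0.0402), Gm41313 (log2 fold change -1.89, SE 0.37, adjusted p = 0.024) and Gm35851 (log2 fold change -1.69, SE 0.33, adjusted p = 0.024). None of these 8 lncRNAs passed without control replicate 1 or 3, with adjusted p-values of up to 0.141. In the list of 24 characterised lncRNAs, Lncenc1 and Neat1 rose and Mir99ahg fell, against 4.84% passing over all genes tested. Neat1, the scaffold of nuclear paraspeckles, measured 1116, 1327, 1333 and 1745 CPM in chow libraries 1 to 4 and ranged from 1743 to 2443 CPM with a median of 2160.0 in the 6 high-fat libraries. Control replicate 4 reached the high-fat range (log2 fold change 0.61, SE 0.15, adjusted p = 0.0429), and on log2(FPKM + 0.5) the sign turned, to -0.18. Lncenc1 had 8 chow counts in all against 155, a ratio of 13.0 with an exact 95% interval of 6.42 to 30.6 for counting error only (adjusted p = 0.0203), and Mir99ahg, the host gene of a microRNA cluster, fell from 111 to 61.1 CPM (log2 fold change -0.87, SE 0.18, adjusted p = 0.0271). Lncenc1, Neat1 and Mir99ahg all missed the threshold without control replicate 1, 2 or 3 (adjusted p of up to 0.150). No strand setting is stated for the counting, so reads of a lncRNA and of a gene on the opposite strand cannot be told apart.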

How the data were processed

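The deposited table holds, per library, RSEM expected counts (not normalised, 30.4% not whole numbers) and FPKM values made by the authors. The labels' protocols name Bowtie2 2.2.5 for mapping to a reference gene set and RSEM 1.2.12 for quantification; the submitters' processing notes name HISAT2 2.0.4 and GRCm38.p6. The strand setting and annotation release are not given in the sources used here, and the 6 columns of the authors' group means were not used. Of the 25017 named genes, 24350 matched RefSeq (GRCm38.p6) by identifier; genes with only the company's identifier (7872) stayed in library sizes and in the multiple-test adjustment.

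Expected counts were rounded and tested in edgeR 4.0.16 (R 4.3.3): TMM factors, filterByExpr with a minimum count of 10, a robust quasi-likelihood fit with diet as its only term (8 residual degrees of freedom), and Benjamini-Hochberg adjustment over 19188 genes. A gene passed at an adjusted p below 0.05. A second fit with 1 coefficient per group compared the high-fat classes. Gene lists (47, with 899 genes tested) are described by counts and medians, with no set test. The genes and lists were chosen with earlier results of these data known. Named genes were the 10 largest separated changes per direction in protein-coding genes and 4 in lncRNAs (mean of at least 1 CPM in a diet group), the 5 lowest p-values per direction, up to 4 per list by p, 10 chosen genes, and up to 5 genes that also passed between the high-fat classes; every other gene named lies outside this rule and was chosen after its values were seen, mostly to complete a list. Some genes that passed are counted in their lists but not reported here by name. CPM use TMM library sizes. With 35583997 to 37327770 counts per library, depth limits genes of few counts. Ratios with low group totals carry exact 95% intervals. Alternatives were DESeq2 1.42.0, limma 3.58.1 on log2(FPKM + 0.5), + 0.1 and + 1, other factors and filters, named genes alone, 3 groups, a replicate block, a muscle covariate and leaving out libraries.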

Additional observations from a re-analysis of the deposited data

Results flagged for a closer look

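A single library lay far from the rest of its diet group in 22 of 232 groups tested with Dixon's criterion at the 95% level, which chance reaches in about 1 of 20 groups. Obesity-prone replicate 2 was far above the other high-fat libraries for the chaperones Hspa1b (797 CPM) and Hspa1a (474 CPM), the calcium channel Ryr2 (122 CPM) and the inositol importer Slc5a3 (334 CPM). Obesity-prone replicate 3 stood far below for the lipogenic genes Thrsp (67.4 CPM) and Tkt (285 CPM) and for Cidea (341.5 CPM), and far above for Apoe (457 CPM), Car3 (1419 CPM), Adipoq (487 CPM) and Lep (396 CPM). Control replicate 4 was far above the other chow libraries for Wwc1 (0.479 CPM), Lmntd1 (0.505 CPM), Scd3 (0.639 CPM), Hspb8 (64.7 CPM), Socs3 (3.54 CPM) and Ifi44 (1.46 CPM). Further single libraries were obesity-prone replicate 1 for Wwc1 (2.69 CPM), obesity-resistant replicate 1 for Irf4 (14.9 CPM) and Gm35196 (0.336 CPM), obesity-resistant replicate 3 for Slc2a5 (0.138 CPM) and control replicate 2 for Tnfrsf9 (0.145 CPM).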

How the results depend on the processing

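Against 868 named genes (430 higher, 438 lower), DESeq2 called 2018 (971 and 1047), a skeletal muscle score as covariate gave 542 (263 and 279), limma on log2(FPKM + 0.5) without a filter 182 (122 and 60) and a 2-fold minimum 256 (143 and 113). Without control replicate 4 and obesity-prone replicate 3 together, 3155 passed (1429 and 1726). No filter lowered the higher genes to 265, and limma with added constants of 0.5, 0.1 and 1 lowered the lower genes to 250, 249 and 235. Leaving out each library gave 12 to 1831 genes, 5 to 851 higher and 7 to 980 lower; the cause of these shifts was not tested. Of diet genes that also differ between the high-fat classes, edgeR gave 0 and DESeq2 15. RLE or upper-quartile factors, a filter of 1 CPM, named genes alone and 3 groups kept each count within 1.5 times.

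Signs turned for Neat1 under limma (-0.18 at each constant and without a filter), and for genes that never passed: Ucp1 without both libraries (0.0747), Dio2 (0.18 without both, and -0.34 to 0.19 over leave-one-out fits) and Ppargc1a (-0.0365 with 3 groups, and -0.19 to 0.22 over leave-one-out fits). The skeletal muscle median turned to 0.15 with the covariate, a score made from these same markers, so a shift toward 0 was built in. Over leave-one-out fits that median ran from -2.38 to 0.31, positive without control replicate 2. The median of Mesothelial and epithelial markers turned to 0.53 under DESeq2, 0.47 without a filter and 0.0103 under limma without a filter. Those fits also took in list members too low for the main test, which covered 4 of 12. Of the 868 called genes, 0 changed sign under DESeq2 or without a filter, and 3 under limma without a filter. Medians of the T and B cell lists had no gene left under the 1 CPM filter.

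The labels number replicates in each group. Deviations of same-numbered samples from their group means correlated at -0.156 to 0.198, those of differently numbered samples at -0.325 to 0.280. With 3 or 4 libraries in a group, these correlations cannot decide whether the numbers pair the samples. A replicate block gave 948 genes (436 higher, 512 lower), kept 591 of the 868 calls and gives control replicate 4, alone in its block, no weight. Depth limits genes with few counts, such as Slc2a5, Rspo4 and Lncenc1.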

Other observations

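Some genes outside the lists and the naming rule also passed and are given here as values, chosen after their values were seen. Among them, the Notch ligand Dll4 rose from 8.93 to 24.1 CPM, the receptors Notch4 and Notch1 from 34.9 to 68.7 CPM and 99.96 to 146 CPM, and the Notch target Hey1 from 4.38 to 10.7 CPM, while the angiopoietin gene Angpt1 fell from 24.9 to 9.24 CPM. The log2 fold changes were 1.43 for Dll4 (SE 0.21, adjusted p = 0.0111), 0.98 for Notch4 (SE 0.15, adjusted p = 0.0118), 0.55 for Notch1 (SE 0.10, adjusted p = 0.0205), 1.28 for Hey1 (SE 0.28, adjusted p = 0.0319) and -1.43 for Angpt1 (SE 0.18, adjusted p = 0.00778). Without control replicate 3 none of these 5 passed, with an adjusted p of 0.0517 at most for Angpt1 and 0.118 at most for Hey1 over the leave-one-out fits. Only Hey1 of these 5 had overlapping groups.

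Klb, the co-receptor β-Klotho of FGF21, measured 89.8, 72.3, 109 and 50.02 CPM in chow libraries 1 to 4 and ranged from 25.2 to 37.29 CPM with a median of 30.8 in the 6 high-fat libraries. Esr1, the oestrogen receptor α, measured 70.3, 45, 47.8 and 20.01 CPM in chow libraries 1 to 4 and ranged from 10.1 to 19.4 CPM with a median of 12.8 in the 6 high-fat libraries. The groups of both were separate, with log2 fold changes of -1.37 for Klb (SE 0.20, adjusted p = 0.0109) and -1.69 for Esr1 (SE 0.30, adjusted p = 0.0203). Pck1, the enzyme of glycerol synthesis from pyruvate in fat, fell from 4181 to 2428 CPM (log2 fold change -0.78, SE 0.14, adjusted p = 0.0209), the cholesterol exporter Abca1 from 468 to 264 CPM (log2 fold change -0.83, SE 0.14, adjusted p = 0.0162) and the uncoupling protein relative Ucp3 from 176 to 86.4 CPM (log2 fold change -1.03, SE 0.25, adjusted p = 0.0422). Over the leave-one-out fits the highest adjusted p was 0.0555 for Klb, 0.0751 for Esr1, 0.09 for Pck1, 0.0663 for Abca1 and 0.133 for Ucp3.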
